A study of Mus musculus with 12 samples.

Results

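Type 1 innate lymphoid cells (ILC1) of the liver were compared between obese and lean mice. The members were chosen by their labels: 6 of the 12 libraries in the series came from the ILC1 sort gate, 3 from obese and 3 from lean mice, and the other 6 came from natural killer (NK) cells of the same livers. All mice were female C57BL/6 by the labels, and the study's methods give the substrain as C57BL/6J. They were placed at weaning on standard RM1 chow (lean) or on an obesogenic diet sold as 45% AFE fat, given with condensed milk (obese), and stayed on it for 12 weeks. ILC1 were sorted from intrahepatic leukocytes as lineage-negative NK1.1+ CD49a+ CD49b- cells, 1 library per mouse, and libraries were made from 2 ng of total RNA. Lean mice 25, 26 and 27 and obese mice 25, 26 and 27 are different animals, and values for each group are given below in that order. The table analysed here ends at the symbol Cyp26b1 in alphabetical order, so 5545 genes were analysed and genes with later symbols were not analysed here.

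Liver ILC1 are tissue-resident relatives of NK cells. They stay in the sinusoids, where the chemokine receptor CXCR6 helps to hold them, make interferon-gamma and other cytokines early in infection, and kill less readily than NK cells do. In obesity the liver stores fat, its macrophages (Kupffer cells) become activated, and lymphocytes that live beside hepatocytes and macrophages are exposed to their products. A library from sorted ILC1 can also hold RNA of the hepatocytes, macrophages and endothelial cells from which they were separated. In bulk libraries such as these, fewer cells of a type and less RNA per cell cannot be told apart.

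The 6 libraries held between 1666637 and 2541651 counts over the analysed genes, and 2 of the obese libraries stood apart before any comparison was made. In obese 26, transcripts of 32 hepatocyte genes made up 12.6% of all counts, against 0.0166%, 0.0173% and 0.0222% in the lean libraries and 0.0662% and 0.0351% in obese 25 and 27. Kupffer cell and macrophage genes made up 2.84% of obese 26, against 0.0223% to 0.0559% in lean, 0.133% in obese 25 and 0.196% in obese 27. The hepatocyte and macrophage lists were thus higher in every obese library than in any lean one, by a small amount in 2 of them and by a very large one in obese 26. The exact permutation test of 3 against 3, two-sided, gave p = 0.1 for both lists, which is the smallest p that this design allows for any list. Endothelial genes reached 0.908% in obese 26 and 0.0117% to 0.0235% in the other 5 libraries, and B cell genes 0.716% against 0.00894% to 0.0222%. The NK cell library of the same mouse, obese 26, held 0.0473% hepatocyte and 0.0141% macrophage transcripts.

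The label was also checked against ILC1 genes. A list of 11 ILC1 identity genes, including Cxcr6, Cd200r1, Cd160 and Cd7, made up 5.26% to 5.84% of counts in the lean ILC1 libraries, 5.43% in obese 25 and 4.07% in obese 27. In obese 26 the share was 0.818%, inside the range of the 6 NK cell libraries (0.812% to 1.31%). The summed share of that library was thus low for its label, but the members of the list were split. In raw counts, Cxcr6 had 3575 in obese 26 and at most 855 in any NK cell library, and Cd200r1 had 490 and at most 249. Cd160 had 1056, against 843 to 3283 in NK cell libraries, and Cd7 had 3278, against 5107 to 11867. The library is called obese 26 here by its label. NK identity genes made up 0.518% of it, less than in the other ILC1 libraries (0.767% to 1.06%) and in the NK cell libraries (1.16% to 1.35%).

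**Figure D1:**
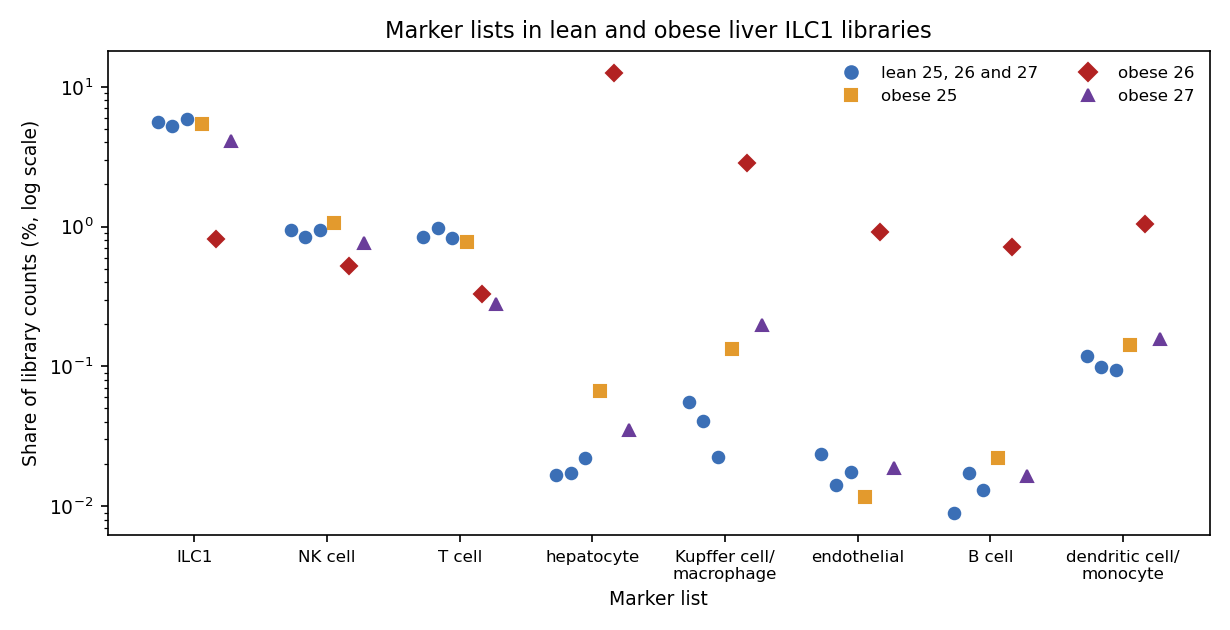
Share of each ILC1 library's counts (percent, log scale) taken by lists of marker genes for ILC1, NK cells and other liver cells, with 1 point per library. Obese 26 lies apart in the hepatocyte list (12.6%), the macrophage list (2.84%) and the ILC1 list (0.818%), while the other 5 libraries lie closer together.

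Obese 25 differed in another way. Of the 2360 genes with enough counts to be tested, 748 had at most 3 counts in obese 25, compared with 117, 65 and 155 in the lean libraries, 47 in obese 26 and 46 in obese 27. It held 2014 detected genes, against 2478 to 2781 in lean, although its total count was close to theirs. Genes with at most 3 counts in 1 library and 50 or more normalized counts in each of the others numbered 217 in obese 25 and 0 to 3 in each of the other 5. Conversely, 34 genes in obese 25 and 134 in obese 26 were at least 4-fold above all the other libraries, compared with 0 or 1 gene in each of the remaining 4. Obese 27 resembled the lean libraries most closely. Its Spearman correlations with each lean library across tested genes averaged 0.911, against 0.769 for obese 25 and 0.723 for obese 26. The part that RNA input or cell number played was not tested, and each result below is therefore given with obese 25 and obese 26 in view.

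**Figure D2:**
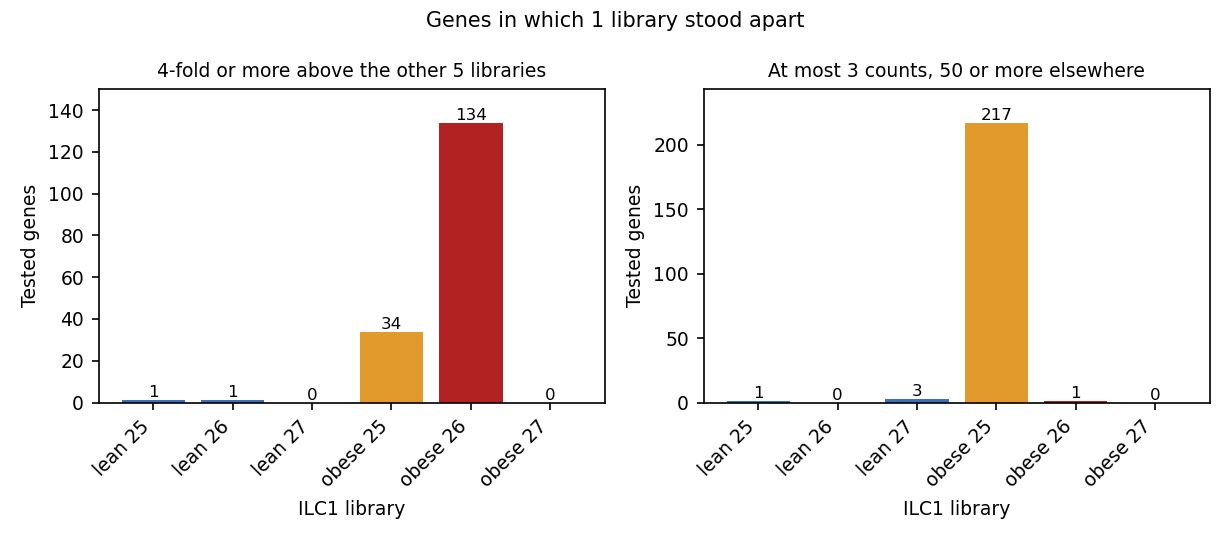
Number of tested genes (of 2360) in which 1 ILC1 library stood at least 4-fold above the other 5 (left) or held at most 3 counts where every other library held 50 or more normalized counts (right). Obese 26 has 134 genes of the first kind and obese 25 has 217 of the second.

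No gene passed the test of obese against lean ILC1 fitted across all genes. The quasi-likelihood test of edgeR, adjusted over the 2360 tested genes by the Benjamini-Hochberg method, called 0 genes higher (0%) and 0 lower (0%), where a call needed an adjusted p below 0.05 and more than a 2-fold change. The lowest adjusted p was 0.868. At an unadjusted p under 0.05, 87 genes (3.69%) were higher in obese ILC1 and 44 (1.86%) were lower. Without obese 26 the same test again called 0 genes (0%), with a lowest adjusted p of 0.594. There, 75 genes (3.18%) were higher and 61 (2.58%) lower at an unadjusted p under 0.05. Of the 87 genes, 46 also had an unadjusted p under 0.05 in that direction without obese 26, and 31 were at least 4-fold above every other library in obese 26. Of the 44 genes, 30 also had one. DESeq2 called 32 genes higher and 13 lower of the 3379 it tested. Of 2360 genes, edgeR's likelihood-ratio test called 16 and 8, and limma-voom with sample quality weights only Cd83, which was higher. The DESeq2 calls included Bok and Colec11, each with 70 counts in obese 26 and 0 in the other ILC1 libraries. Those of the likelihood-ratio test included Alb, Apoa2 and Ambp, at least 4-fold higher in obese 26 than in any other library. Both tests also called Cd83, for which obese 26 was not the highest library. The single library obese 27 against the 3 lean libraries, whose spread alone then sets the error, gave 6 genes higher (Cd83, Apoe, Car2, Ctss, Crtam and Capg) and 3 lower (Ccdc136, Cd3g and Cdh17). The log2 fold changes and standard errors (SE) that follow come from the quasi-likelihood fit, and none belongs to a gene that passed it after adjustment.

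The tested genes were then sorted by which libraries carried the difference. In 179 genes (7.58%) all obese libraries were above all lean ones, and in 211 (8.94%) all were below. Adding a difference of over 2-fold between the mean of obese 25 and 27 and the lean mean left 84 genes (3.56%) higher in every obese library and 129 (5.47%) lower. In all, 134 genes (5.68%) were carried by obese 26, with a normalized count there at least 4-fold above that of every other library, and 22 of them were also among the 84. In 17 genes (0.72%) obese 26 was at least 4-fold below all others. Obese 25 bore on both shared groups: it was the highest library for 50 of the 84 genes and the lowest for 93 of the 129, and 82 of the 129 had at most 3 counts in it. When obese 25 was left out, 157 genes (6.65%) were higher in both remaining obese libraries and over 2-fold higher in obese 27, 49 of them among the 84, and 90 genes (3.81%) were lower, 65 of them among the 129. The test without obese 25 called no gene, with 150 genes (6.36%) higher and 86 (3.64%) lower at an unadjusted p under 0.05.

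**Figure D3:**
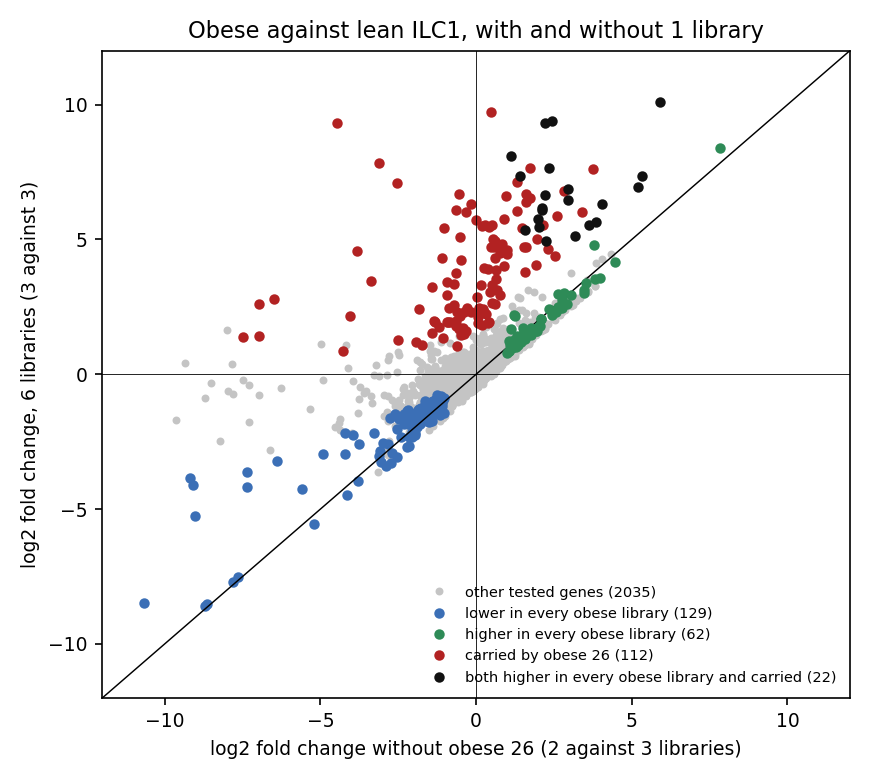
Fitted log2 fold change, obese over lean ILC1, of 2360 tested genes in all 6 libraries (vertical) and without obese 26 (horizontal), coloured by which libraries carried the difference; the diagonal marks equal values. The 134 genes carried by obese 26 (red and black) lie far above the diagonal, and the genes lower in every obese library (blue, 129) and the other shared genes (green) mostly lie nearer to it.

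Levels are given below as normalized counts, which are counts scaled by the trimmed mean of M-values (TMM) to the mean effective size of the 6 libraries. Among genes higher in every obese library, Cd83 had the smallest p. Cd83 (chr13:43784775-43803132, mm10) encodes an immunoglobulin-family surface protein found on mature dendritic cells and activated lymphocytes. It had 283, 220 and 382 normalized counts in the lean libraries and 1105, 2974 and 3134 in the obese ones. The lowest obese library was thus above the highest lean one by a wide margin, and obese 27 was as high as obese 26. The log2 fold change was 3.03 (SE 0.48) and 2.83 without obese 26 (SE 0.49). In the NK cells of the same mice the log2 fold change of Cd83 was 1.94, and the interaction test called no difference between the 2 cell types (adjusted p = 0.996). The dendritic cell and monocyte list made up 0.143%, 1.04% and 0.158% of the obese ILC1 libraries against 0.0935% to 0.118% of the lean ones. The part of RNA of such cells in the Cd83 values was not tested.

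Several genes with an even difference over the 3 obese libraries followed. Ctla2a, an inhibitor of cysteine proteases of the cathepsin L type, had 500, 592 and 732 normalized counts in lean and 1846, 1080 and 1708 in obese libraries, with a log2 fold change of 1.34 (SE 0.30) and 1.53 without obese 26 (SE 0.25). Reads of Ctla2a can be shared with its close paralog and with overlapping models of the same strand, so its counts are uncertain. Anxa1 (chr19:20373428-20390944) encodes annexin A1, a calcium-dependent phospholipid-binding protein with anti-inflammatory effects. It had 2376, 2151 and 2259 normalized counts in lean and 4379, 4395 and 3715 in obese libraries, with a narrow range in both groups (log2 fold change 0.88, SE 0.19). Its mean in obese 25 and 27 was under 2-fold above lean, so it is not among the 84. In NK cells the log2 fold change of Anxa1 was -0.03 (adjusted p = 0.647 for the interaction).

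Apex1 and Ahsa1, chosen here after their values were seen, and Calr and Bcl2a1b were also above every lean library in all obese libraries. Apex1, an endonuclease of base excision repair, had 50.2, 50.5 and 47 against 249, 195 and 172 (log2 fold change 2.06, SE 0.61). The gap between the groups was larger than the range within either group, without a large share from any 1 library. Ahsa1, which activates the ATPase of the chaperone Hsp90, had 744, 825 and 871 in lean and 2221, 997 and 1169 in obese libraries, an uneven difference led by obese 25. Calr, the endoplasmic reticulum chaperone calreticulin, had 3137, 3908 and 3096 against 5594, 8147 and 4090, so obese 27 lay just above the lean range. The anti-apoptotic gene Bcl2a1b was higher by a small and even amount, with 1158, 1143 and 1088 normalized counts in lean and 1686, 1529 and 1510 in obese libraries (log2 fold change 0.48, SE 0.20), and it shares sequence with other Bcl2a1 copies.

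Ccr2 and Arpc3, genes of migration and the cytoskeleton, did not overlap between the groups, with smaller fold changes. Of 29 tested actin genes, 4 were above every lean library in all obese libraries and 0 below. Of 9 tested chemokine receptors, 1 was above and 1 below, beside 7.58% and 8.94% of all tested genes. Ccr2, the receptor for CCL2 that guides monocytes and some lymphocytes to inflamed tissue, had 3553, 3434 and 4055 normalized counts in lean and 6144, 9068 and 4329 in obese libraries (log2 fold change 0.82, SE 0.30). Arpc3, a subunit of the Arp2/3 complex that nucleates branched actin, had 2925, 3204 and 3373 against 5366, 4089 and 4014 (log2 fold change 0.50, SE 0.21). Obese 27 lay just above the lean range for Ccr2, and for both genes a single obese library was well above the others. Capg, which caps actin filaments, was different: obese 25, at 432, lay inside the lean range of 318 to 465, while obese 26 and 27 had 3900 and 1795.

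Lysosomal and myeloid genes made up a further group in which obese 26 was highest but the other obese libraries were also above lean. Cd68, a glycoprotein of lysosomal membranes that is used as a macrophage marker, had 45.2, 82.9 and 63.7 normalized counts in lean and 871, 5519 and 294 in obese libraries. Its log2 fold change was 5.12 (SE 1.17) with all libraries and 3.17 (SE 0.69) without obese 26. Cd300lf, a CD300 family receptor of myeloid cells, had 0, 7.62 and 0.98 against 127, 886 and 94.2. Ctss, the lysosomal protease cathepsin S of antigen-presenting cells, had 232, 231 and 178 against 491, 26441 and 1243. Clec4a3, a lectin of monocytes and macrophages, had 22.1, 3.81 and 0 against 608, 3605 and 97. The same libraries differed in the macrophage list as a whole, which made up 0.133%, 2.84% and 0.196% of obese libraries against at most 0.0559% of lean ones. The part of macrophage RNA in these values was not tested. NK cell libraries also held some of these transcripts, with 107 to 756 raw counts of Cd300lf, 430 to 1085 of Ctss and 65 to 423 of Cd68. Clec4a3 had at most 9 there. Ctso, the more widely expressed cathepsin O, had 980, 811 and 1029 against 2012, 2215 and 1158, with no such peak in obese 26 (log2 fold change 0.93, SE 0.30). Of the 84 genes, 11 were in the lists for other cells, beside 55 of all 2360 tested genes. Complement factor B (Cfb), made by hepatocytes and macrophages, had 0 counts in every lean library and 372, 15864 and 26.8 normalized counts in obese ones, so that it was at least 1850-fold higher over the group, a bound that rests mostly on obese 26. B4galt6, which makes lactosylceramide, also had 0 in every lean library and 37.4, 72.1 and 15.8 in obese ones, at least 14.2-fold higher.

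Among genes lower in every obese library, 1810011H11Rik had the smallest p. This gene had 712, 590 and 1216 normalized counts in lean and 188, 191 and 127 in obese libraries, a log2 fold change of -2.31 (SE 0.41). In NK cells it had 0, 9 and 5 counts in lean and 1, 0 and 3 in obese libraries, too few for a comparison. Ckb (chr12:111669361-111672338), the brain-type creatine kinase that buffers ATP, had 1768, 1853 and 1412 in lean and 747, 840 and 636 in obese libraries (log2 fold change -1.18, SE 0.24, and -1.29, SE 0.23, without obese 26). Ccdc6 had 1064, 1120 and 1000 against 405, 290 and 569 (log2 fold change -1.33, SE 0.32). In these genes every obese library lay well under the lowest lean one. The obese libraries lay close together for 1810011H11Rik and Ckb and were spread more widely for Ccdc6.

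A second set was at or near 0 in all obese libraries. Avil (chr10:127000709-127020994) encodes advillin, an actin-regulating protein of the villin family. It had 241, 231 and 96.1 normalized counts in lean and 0, 1.6 and 0 in obese libraries, so that it was at least 54.7-fold lower, with the floor of 3 counts taken over the group. Its gene lies partly opposite Tsfm, and the strand setting of the authors' counting was not given in the sources used here, so reads of the pair cannot be told apart. The same holds for other genes named here that overlap a protein-coding gene of the opposite strand, which are Ccnd3 and Bysl, Cxcr6 and Fyco1, Cd160 and Pdzk1, Ctsw and Fibp, Cdc25b and Spef1, Cdc20 and Elovl1, Apex1 and Pip4p1, Cd300lf and Rab37, Ctsb and Fdft1, Apoh and Prkca, Csf1r and Hmgxb3, Cox4i1 and Emc8, Ctcf and Agrp, and B2m and Patl2. Ajuba, a LIM-domain scaffold protein, had 49.2, 35.3 and 58.8 in lean libraries and 0 in each obese one, at least 13.8-fold lower. Acvr1c, the type I receptor ALK7 for activins and related ligands, had 73.3, 31.4 and 33.3 against 0 in each, at least 13.3-fold lower. In NK cells Acvr1c had 0 counts in each lean library and 0, 0 and 3 in the obese ones, so no comparison was possible there. Of the tested genes, 10 had at most 3 counts in every obese library and 2 had at most 3 in every lean one. Each of the 10 also had at most 3 counts in obese 25, a library in which 748 tested genes did.

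A further 6 genes of the surface, transport or signalling, chosen here after their values were seen, were among those lower in every obese library. Abcb1a, the drug efflux pump P-glycoprotein, had 983, 1001 and 1239 normalized counts in lean and 189, 341 and 602 in obese libraries (log2 fold change -1.51, SE 0.45). Atp2b4, a calcium pump of the plasma membrane, had 507, 468 and 492 against 65.4, 224 and 181 (log2 fold change -1.64, SE 0.54), and Atp8a2, a phospholipid flippase, had 1134, 881 and 613 against 341, 92.9 and 88 (log2 fold change -2.33, SE 0.65). Art2b, an ADP-ribosyltransferase of the lymphocyte surface, had 461, 615 and 558 against 244, 155 and 90.8 (log2 fold change -1.74, SE 0.48), with reads that its paralog Art2a may share. Clnk, a SLP-76 family adaptor of immunoreceptor signalling, had 1799, 1713 and 1865 in lean libraries, which lay within a narrow range, and 757, 237 and 996 in obese ones (log2 fold change -1.43, SE 0.51). The cadherin Cdh17 had 907, 1073 and 1183 against 0, 123 and 42.6 (log2 fold change -4.26, SE 1.45). Cdh17 was thus at 0 in obese 25, and the other 5 genes were detected in all libraries. In NK cells the log2 fold changes were 0.56 for Abcb1a, -0.16 for Atp2b4 and -0.20 for Clnk, while Atp8a2, Art2b and Cdh17 had at most 14, 30 and 31 counts in any NK cell library.

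**Figure D4:**
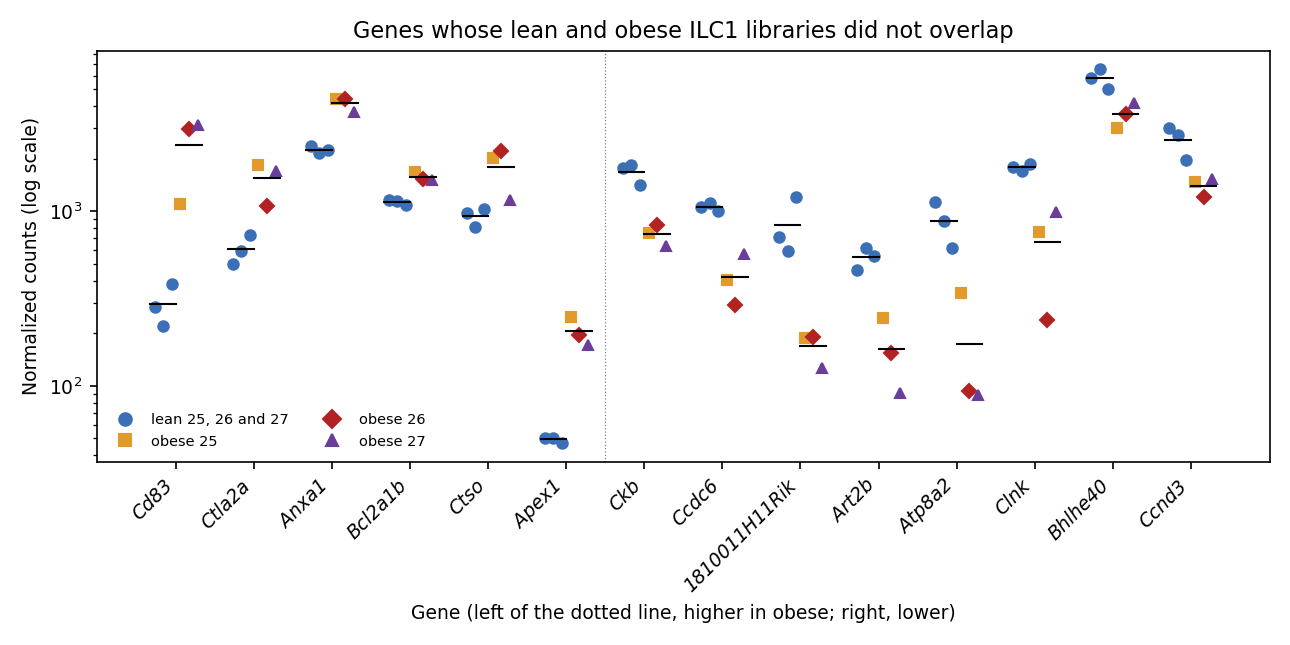
Normalized counts (log scale) of 14 genes in each ILC1 library, with circles for lean 25, 26 and 27, squares for obese 25, diamonds for obese 26, triangles for obese 27 and bars for group means. In all 14 genes the lean and obese libraries do not overlap: Cd83 spans 220 to 382 in lean and 1105 to 3134 in obese, and Ckb spans 1412 to 1853 and 636 to 840.

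The abundant transcription factor Bhlhe40 and a pair of D-type cyclins had lower values in every obese library, by small amounts. Bhlhe40, a basic helix-loop-helix repressor that regulates cytokine genes in lymphocytes, had 5786, 6512 and 5041 normalized counts in lean and 2992, 3623 and 4207 in obese libraries (log2 fold change -0.68, SE 0.22). Ccnd3, the D-type cyclin that drives entry into the cell cycle in lymphocytes, had 2986, 2723 and 1963 against 1472, 1213 and 1534 (log2 fold change -0.86, SE 0.25). Ccnd2, its relative, had 10473, 12397 and 8771 against 7558, 3968 and 7713. The groups did not overlap in any of the 3 genes. The zinc finger factor Ctcf had 699, 908 and 711 against 104, 495 and 499, while Bach2, a repressor of effector programmes, was on the other side with 218, 81.9 and 153 against 590, 253 and 243. Of 19 tested lymphocyte transcription factors, 2 were above every lean library in all obese libraries and 3 below, beside 7.58% and 8.94% of all tested genes. In that list 14 had a positive log2 fold change, beside 1201 of 2360 over all tested genes. Its median was 0.53 with all libraries and 0.23 without obese 26, against 0.02 and -0.12 over all tested genes.

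A wider cell cycle list, which includes these cyclins, held many genes with higher values in obese ILC1. Of its 56 tested genes, 38 had a positive log2 fold change (34 without obese 26), and 12 (Asf1b, Aurkb, Cdc20, Cdc25a, Cdc25b, Cdca3, Cdk1, Cdk6, Cdkn2c, Cenpa, Cks1b and Cks2) were higher in every obese library and 0 were lower over 2-fold, beside 3.56% and 5.47% of all tested genes. At an unadjusted p under 0.05, 4 were higher and 1, Ccnd3, was lower. The median log2 fold change of the list was 0.86, against 0.02 over all tested genes, and it was 0.50 against -0.12 without obese 26 and 0.76 against 0.02 without obese 25. In obese 27 alone, the library closest to lean, 28 of the 56 were above every lean library and 4 below, compared with 651 and 582 of 2360 tested genes. In obese 25, 20 were above every lean library, 18 below and 25 at no more than 3 counts, compared with 767, 1082 and 748 of 2360. In obese 26, 27 were above and 10 below, compared with 814 and 761.

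The mitotic kinase Cdk1, which drives cells into division, had 43.2, 62.9 and 62.7 normalized counts in lean and 592, 170 and 79.8 in obese libraries (log2 fold change 2.32, SE 0.88). Cdc25b, the phosphatase that activates it, had 60.2, 17.2 and 65.7 against 366, 279 and 125 (log2 fold change 2.42, SE 0.81). Obese 25 was highest for both, and obese 27 lay nearest to lean. Cks1b, a small subunit bound to cyclin-dependent kinases, had 141, 132 and 158 against 320, 255 and 307, with little spread in either group. Cenpa, the histone H3 variant of centromeres, had 132, 201 and 115 against 290, 224 and 448, and Asf1b, a histone chaperone of dividing cells, had 351, 303 and 265 against 1055, 381 and 526. Cdk6, the kinase partner of D-type cyclins, had 15.1, 6.67 and 27.4 against 485, 57.7 and 39.9. Aurkb, a kinase of the chromosomal passenger complex, had 26.1, 81 and 0 against 699, 131 and 106. These levels were low, and the spread within the obese group was wide for most of the 12 (for Aurkb, log2 fold change 3.12, SE 1.70).

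**Figure D5:**
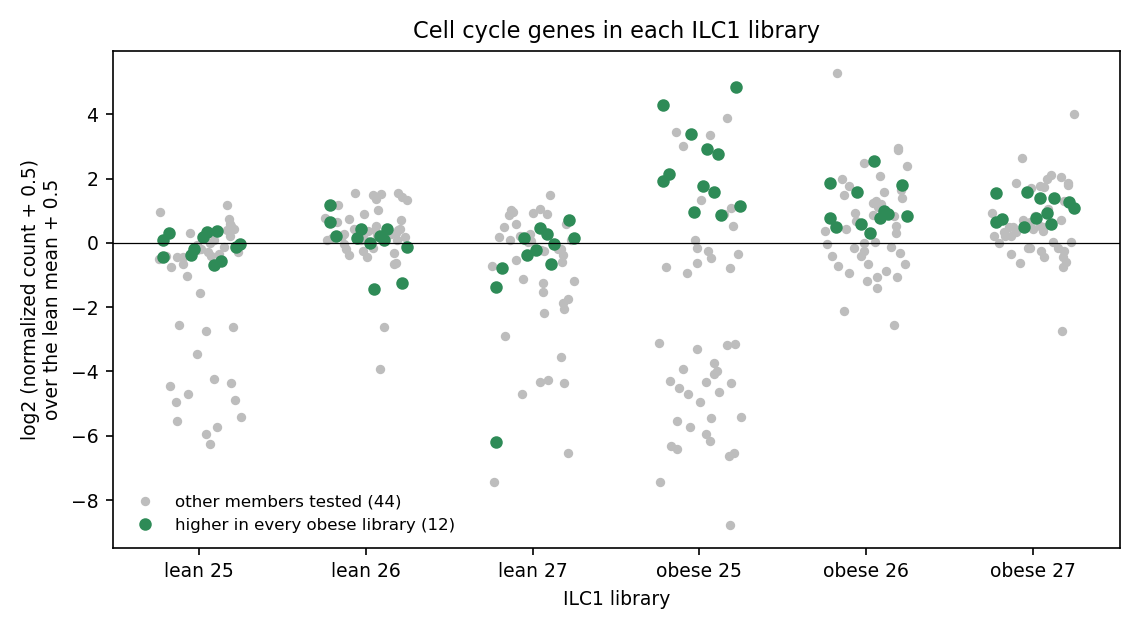
Normalized count of each of 56 cell cycle genes in each ILC1 library, over the mean of the lean libraries, on a log2 scale with 0.5 added to both, 1 point per gene. In obese 27, 28 genes lie above every lean library (651 of all 2360 tested genes). In obese 25, 20 lie above (767 of 2360) and 25 are at no more than 3 counts (748 of 2360).

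The promoters of 3 of the 12 genes are shown because many genes of the later cell cycle share short elements there. The RefSeq promoter table (GRCm38.p6) gave 250 bases before to 50 bases after the start for 11 of the 12. They were searched on both strands for TTTGAA, the core of the CHR element, and for CCAAT, the box bound by NF-Y, 2 motifs that can lie beside each other in promoters of mitotic genes. TTTGAA was present in 6 of 11 (54.5%) and CCAAT in 9 (81.8%), and 6 (54.5%) held both. Over the 49 list members with a promoter in the table, 46.9% held TTTGAA, 65.3% CCAAT and 38.8% both, against 18.1%, 37.9% and 7.12% of 27025 mouse promoters of the same length. A match describes the letters in this window and is not a tested site. Capitals mark both motifs on either strand (TTCAAA and ATTGG are the reverse complements). Cdk1 lies at chr10:69352863-69353162 on the minus strand, Cenpa at chr5:30666636-30666935 on the plus strand and Cks1b at chr3:89418242-89418541 on the minus strand, and each sequence is given 5′ to 3′ in the direction of the gene.
Cdk1: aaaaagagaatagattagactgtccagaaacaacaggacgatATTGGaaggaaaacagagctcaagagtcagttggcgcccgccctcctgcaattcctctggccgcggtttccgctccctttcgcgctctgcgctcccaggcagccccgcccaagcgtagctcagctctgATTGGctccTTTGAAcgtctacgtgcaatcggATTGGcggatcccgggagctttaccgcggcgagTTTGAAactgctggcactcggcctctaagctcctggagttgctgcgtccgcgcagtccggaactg
Cenpa: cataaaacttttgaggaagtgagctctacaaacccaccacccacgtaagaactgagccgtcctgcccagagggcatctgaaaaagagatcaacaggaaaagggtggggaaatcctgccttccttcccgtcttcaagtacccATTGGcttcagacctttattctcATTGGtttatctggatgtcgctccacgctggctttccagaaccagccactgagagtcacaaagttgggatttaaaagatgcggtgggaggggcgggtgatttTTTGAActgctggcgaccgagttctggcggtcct
Cks1b: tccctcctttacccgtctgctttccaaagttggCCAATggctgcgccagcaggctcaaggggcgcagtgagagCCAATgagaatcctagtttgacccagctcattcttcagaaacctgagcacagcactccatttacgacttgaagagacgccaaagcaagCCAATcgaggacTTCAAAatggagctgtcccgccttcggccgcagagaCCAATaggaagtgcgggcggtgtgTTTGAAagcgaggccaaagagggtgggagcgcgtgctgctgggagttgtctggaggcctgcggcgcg

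Of the 11 ILC1 identity genes, 8 were below every lean library in obese 26, 7 in obese 27 and 3 in obese 25, while 0, 3 and 4 were above. Of all 2360 tested genes, 761, 582 and 1082 were below every lean library in the same order, and 814, 651 and 767 were above. Cxcr6, the receptor that retains ILC1 in the liver, had 20445, 17427 and 22695 normalized counts in lean and 16669, 5729 and 11136 in obese libraries. It was below every lean library in all 3, with a log2 fold change of -0.85 (SE 0.40) and -0.55 without obese 26 (SE 0.22). In NK cells Cxcr6 was on the other side, with a log2 fold change of 1.97 (adjusted p = 0.647 for the interaction). Cxcr3, the receptor for interferon-induced chemokines, had 7249, 6056 and 6605 against 6446, 2182 and 4243, where obese 25 lay within the lean range.

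The inhibitory receptors Cd200r1 and Cd101 gave no even difference. Cd200r1, which restrains immune cells on binding CD200, had 3550, 2677 and 3495 normalized counts in lean and 5876, 785 and 4256 in obese libraries. Obese 25 and 27 were thus above lean and obese 26 was far below, so that the log2 fold change was 0.17 (SE 0.65) with all libraries and 0.63 (SE 0.21) without obese 26. Cd101 had 354, 169 and 311 against 401, 271 and 349, and the ranges overlapped (log2 fold change 0.29, SE 0.45). For Cd200r1 the fitted diet effect in NK cells was 2.58 on the log2 scale (adjusted p = 0.793 for the interaction, by edgeR). Cd101 had 0, 0 and 1 counts in lean NK cells and 27, 8 and 26 in obese ones, so that its fold there has no firm base. Cd69, a residency and activation marker, had 3364, 3305 and 3947 against 3577, 3705 and 2369, and Ahr, the aryl hydrocarbon receptor on which intestinal innate lymphocytes depend, had 154, 80 and 132 against 151, 120 and 219. Both ranges overlapped.

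In 17 genes obese 26 was at least 4-fold below every other library, and these included Cd7, Cd160, Cd200r2, Ccr8, Ccl4 and Ctsw, genes of ILC1 and cytotoxic lymphocytes. Cd7, a surface glycoprotein of lymphocytes, had 45334, 45900 and 50571 normalized counts in lean and 51257, 5253 and 33215 in obese libraries, so that obese 26 held 0.111 of the lean mean. Cd160, a receptor of cytotoxic lymphocytes, had 10323, 9833 and 11080 against 16119, 1692 and 8849, a ratio of 0.163 in obese 26. Ccl4, an inflammatory CC chemokine, had 24825, 21777 and 21321 against 24827, 5035 and 22160 (ratio 0.222), and Ctsw, the cathepsin of killer cells, had 14951, 12861 and 12670 against 13052, 2674 and 11799 (ratio 0.198). In these genes obese 25 and 27 lay nearer to lean than obese 26 did. Other abundant lymphocyte genes were also lowest in obese 26 without reaching 4-fold. The chemokine Ccl5 had 54915, 59889 and 64537 against 56371, 11424 and 41087. The activating receptors Cd226 and Cd244 had 1235 and 1699 in obese 26 and at least 4206 and 4377 in the others. By contrast B2m, the light chain of MHC class I expressed by nearly all cells, had 62402, 68026 and 70892 in lean and 82324, 79425 and 72770 in obese libraries and was not low in obese 26.

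Genes of the T cell list, and Crtam, Ccl1 and Car2 outside that list, differed between the obese libraries. Cd3g, a CD3 chain that some innate lymphocytes also transcribe, had 12088, 12529 and 13012 normalized counts in lean and 11997, 3190 and 1977 in obese libraries, so that obese 26 and 27 were low and obese 25 lay just under lean. The 10 genes of the T cell list made up 0.835% to 0.973% of lean libraries and 0.771%, 0.33% and 0.277% of obese ones. In the lean libraries most of these counts were of Cd3g. Cd3d had 724, 1942 and 686 against 427, 1412 and 534, and Cd3e 459, 978 and 258 against 352, 1348 and 193. Of 8 tested genes of the list, 4 were above every lean library in obese 26, 1 in obese 27 and 1 in obese 25. Below every lean library were 3, 4 and 5 in that order. Over all 2360 tested genes, 814, 651 and 767 were above and 761, 582 and 1082 below. Cd28, the costimulatory receptor, had 993, 1047 and 854 against 2244, 694 and 1720. Crtam, an adhesion receptor of activated lymphocytes, had 122, 353 and 366 against 1437, 224 and 5371 (log2 fold change 3.59, SE 0.69, without obese 26). Ccl1, the ligand of CCR8, had 200, 38.1 and 192 against 1479, 122 and 891 (log2 fold change 3.04, SE 0.72, without obese 26). Car2, a carbonic anhydrase, had 2261, 1711 and 2082 against 4569, 1634 and 7472, with a log2 fold change of 1.57 (SE 0.25) without obese 26. In Cd28, Crtam, Ccl1 and Car2 obese 25 and 27 were above lean and obese 26 was not.

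Lists of genes by function were described by their counts and medians. Of 38 tested genes of oxidative phosphorylation, 7 were above every lean library in all obese libraries and 0 below, beside 7.58% and 8.94% of all genes. Their median log2 fold change was 0.12 with all libraries and 0.205 without obese 26, against 0.02 and -0.12 over all tested genes. Cox4i1, a subunit of cytochrome c oxidase, had 4675, 4117 and 4178 against 5911, 5241 and 5353. Of 43 lysosomal genes, 10 were above and 2 below, and 8 were carried by obese 26, beside 5.68% of all tested genes. Their median log2 fold change was 0.42 with all libraries and -0.05 without obese 26. Of 18 interferon and antigen presentation genes, 5 were above and 1 below, with medians of 0.64 and 0.04. Of 38 genes of lipid metabolism, 5 were above and 1 below, with medians of 0.48 and 0.03. Acly, which makes cytosolic acetyl-CoA for fatty acid synthesis, had 1418, 1644 and 1314 against 2084, 3254 and 1722, above lean in each obese library, and Agpat3, an acyltransferase of phospholipid synthesis, had 633, 640 and 808 against 275, 380 and 433. In 3 of these lists the median therefore came close to that of all genes (-0.12) when obese 26 was left out. Of 12 genes of transforming growth factor-beta and activin signalling, 0 were above and 3 below (medians -0.44 and -0.82). In obese 25, 7 of the 12 had no more than 3 counts, beside 748 of all 2360 tested genes. Of 28 inhibitory and costimulatory receptors, 3 were above and 1 below. In that list 6 were carried by obese 26 and 3 were low only there, beside 5.68% and 0.72% of all tested genes.

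The genes carried by obese 26 included many of hepatocytes, macrophages, endothelium and B cells. Alb (albumin, the main plasma protein made by hepatocytes) had 53.2, 61.9 and 107 normalized counts in lean and 581, 140842 and 113 in obese libraries. Apoa1 and Apoa2, the proteins of high-density lipoprotein, had 41970 and 39358 in obese 26 and no more than 187 and 143 in any other library. Ahsg and Apoh, plasma proteins of the liver, had 27215 and 17386 in obese 26, and without that library their log2 fold changes were negative, at -4.46 and -3.10. For these hepatocyte genes the high level was that of 1 library. Genes that lymphocytes also express were carried too: Ctsb, cathepsin B, had 4684, 3901 and 4378 in lean and 5318, 53285 and 5119 in obese libraries, and Cst3, the protease inhibitor cystatin C, had 2037, 1496 and 1613 against 2169, 14643 and 2344. Apoe, the lipoprotein of hepatocytes and macrophages, had 700, 396 and 548 in lean and 934, 161941 and 4157 in obese libraries, so that obese 27 was also above lean (log2 fold change 2.21, SE 0.60, without obese 26).

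Among the macrophage genes, Clec4f, a lectin of Kupffer cells, had 1, 81 and 0.98 normalized counts in lean and 292, 9294 and 142 in obese libraries. Adgre1, which encodes the F4/80 antigen, had 0, 28.6 and 60.8 against 608, 3396 and 149. Csf1r, the receptor on which macrophages depend, had 61.2, 42.9 and 0 against 0, 8501 and 213. Obese 25 and 27 thus held low counts of these genes too, but not of each. Cd74, the invariant chain of MHC class II, had 2000, 1327 and 811 against 2240, 162989 and 5927, and Cybb, a subunit of the phagocyte NADPH oxidase, 194, 46.7 and 64.7 against 278, 19905 and 616. Clec4g, of sinusoidal endothelium, had 12656 in obese 26 and at most 207 elsewhere, and Cd79a, of the B cell receptor, had 4812 and at most 29.6. Of the 134 genes, 37 were in the lists for other cells, and 25 were above every lean library in obese 25 and 27 as well. Of all 2360 tested genes, 55 were in those lists, and 278 were above every lean library in obese 25 and 27. Over all 5545 genes, without the filter for testing, 471 met the criterion for being carried by obese 26, and 97 of the 129 genes in the other-cell lists did.

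The difference between obese and lean ILC1 was last compared with that in NK cells of the same mice, in 1 model of all 12 libraries without a term for the mouse. Of 2606 genes tested, 0 (0%) had an adjusted p under 0.05 for the interaction, with 0.647 as the lowest value in the edgeR fit, and 155 (5.95%) had an unadjusted p under 0.05. Without obese 26 the count was again 0. Since both cell types came from the same mice, a second fit added a block for each mouse. It again called 0 genes, with 67 at an unadjusted p under 0.05 and 0.975 as the lowest adjusted p.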

How the data were processed

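The authors aligned reads with STAR 2.5.2b after Trimmomatic 0.36.5 and counted them per gene with featureCounts 1.6.0.2 on mm10, as the submitters' processing notes name them. They deposited raw counts per gene and library, which were used here. The deposited score columns, counts divided by the authors' size factors and rounded, were not used. The strand setting and the annotation version were not given in the sources used here. 1 incomplete row was left out.

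Obese and lean ILC1, 3 libraries each, were fitted with edgeR 4.0.16 (R 4.3.3): filterByExpr, TMM, quasi-likelihood test and Benjamini-Hochberg adjustment over all 2360 tested genes. Calls needed an adjusted p below 0.05 with more than a 2-fold change. DESeq2 1.42.0 and limma 3.58.1 served as alternatives. Genes were sorted by library with 0.5 added to normalized counts, and bounds used a floor of 3 counts. Genes were named by size of change and smallest p within each group and list, except, chosen after their values were seen or as cell type markers, Ahsa1, Apex1, Art2b, Atp8a2, Abcb1a, Atp2b4, Clnk, Cdh17, Ccdc136, Ccnd2, Cd160, Cd7, Cd69, Ahr, Ccr8, Cd226, Cd200r2, Ctsw, Ccl4, Ccl5, Aurkb, Cdca3, Cdc20, Cenpa, Cks2, Cks1b, Asf1b, Cdkn2c, Cdc25a, B2m and Cd244. Scripts were tested on simulated data. The members, gene lists and rules were chosen with earlier results of these data known.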

Additional observations from a re-analysis of the deposited data

How the results depend on the processing

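The absence of calls held under the scaling, filter and single-model alternatives and when any 1 of the 6 libraries was left out, but not under every test. DESeq2 called 32 genes higher and 13 lower of 3379 tested. Of 2360 tested, the likelihood-ratio test called 16 and 8, limma-voom with quality weights 1 higher and the replicate block 2 higher (Ambp and Clec4f). Obese 27 alone against lean was an alternative chosen after seeing the data. Lean and obese mice of the same number are different animals, and the study calls the lean mice littermates of the obese ones. Same-numbered deviations correlated at -0.010, 0.087 and 0.013, and those of the other pairs at -0.108 to 0.070. Whether the numbers also mark a shared litter or batch cannot be decided from these few values. Without obese 26, 1 model of the other 11 libraries called 2 genes higher (Car2 and Ctla2a), DESeq2 called 12 higher and 15 lower, and the likelihood-ratio test 7 and 11. Leaving out a further library there gave 0 to 162 genes higher and 0 to 503 lower, with the highest counts for obese 25 alone against lean. Keeping only genes with at least 10 counts in every library, and scaling the libraries on those genes, gave 54 genes higher and 47 lower in every obese library and 25 carried by obese 26. Asking for no fold change gave 179 and 211, and leaving out obese 25 gave 157 higher; both were chosen after seeing the data. The comparison of ILC1 with NK cells called 0 genes with the mouse as a replicate block, and 0 without obese 26, both fitted after seeing the data. Among 85 genes named with values, the log2 fold change turned sign without obese 26 for Cd160 (-0.98 to 0.25), Ccr8 (-0.76 to 0.47), Cd200r2 (-0.98 to 0.060), Ccl4 (-0.73 to 0.041), Ahsg (-4.46 to 10.28), Apoh (-3.10 to 8.43) and Cd79a (-0.66 to 6.68), where the ranges are over all single libraries left out. Without lean 27 the value of Ccr8 was also positive. The sign of Cd200r1 (-0.36 to 0.63) turned without obese 25 and that of Cd69 (-0.27 to 0.041) without obese 27. The cause was not tested. With 3 mice a group and 2 obese libraries that stood apart, the quasi-likelihood test separated no gene from the spread between libraries, although DESeq2, the likelihood-ratio test and limma-voom each called Cd83, and 748 genes at no more than 3 counts in obese 25 limit what its low values show.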
